A study of Mus musculus with 13 samples.

Results

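Mpo, Ctsg, Elane, Prtn3, Lyz2, Ngp, S100a8, S100a9 and Csf1r encode granule proteins, calcium-binding proteins and a growth factor receptor of myeloid cells, and they were followed here in common lymphoid progenitors (CLPs). The 9 genes were chosen by symbol, as the entries whose gene name equals one of these symbols in both deposited tables, out of 24972 genes in all. Every one of the 9 was found. They were read in all 13 libraries of the study, which asked how CLP transcripts depend on Notch1.

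The libraries were made by strand-specific 3′ RNA-Seq from CLPs sorted from the bone marrow (BM) of adult C57BL/6 mice of 6 to 12 weeks, with 1 library per mouse. The sort kept DAPI- cells without lineage markers (Lin-), with low Sca1 and cKit and with CD127 and CD135. The 5 WT mice gave libraries 1, 2, 3, 10 and 11. The 5 Notch1+/- mice, with 1 functional allele of Notch1, gave libraries 4, 5, 6, 12 and 13. The 3 Notch1+/ΔTAD mice, in which 1 allele of Notch1 lacks the transactivation domain, gave libraries 7, 9 and 14. As far as the methods state, neither mutation was restricted to CLPs by a Cre driver. Each value is a TPM, a transcript abundance scaled so that the values of a library sum to 1000000.

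As background, granulocytes and monocytes arise from progenitors that turn on the transcription factors PU.1 and C/EBPα. Promyelocytes then fill their primary, or azurophil, granules with myeloperoxidase and serine proteases, and later stages make secondary granules and large amounts of S100a8 and S100a9. CLPs are the progenitors from which B cells, NK cells and T cells are formed, and transcripts of the myeloid program at low levels are a known feature of multipotent progenitors upstream of them. In bulk RNA from sorted cells, fewer cells of a type and less RNA per cell cannot be told apart.

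Several of the 9 genes lie as neighbors in the genome. On chromosome 10 of GRCm38, Prtn3 (79874476 to 79883174, plus strand) and Elane (79886247 to 79888215, plus strand) are separated by 3073 bases. On chromosome 3, S100a8 (90668978 to 90670035, plus strand) and S100a9 (90692632 to 90695721, minus strand) are separated by 22597 bases. The sequence before the start site of these neighbors is given as in RefSeq for GRCm38.p6, because each pair is compared for its TPM later. Stretches that GENCODE annotates as exons were left out. The RefSeq start site of Prtn3 lies inside the longer span that GENCODE gives for the gene. Capitals mark the letters GAGGAA, the core of sites for PU.1, and TTNCNNAA, a loose form of sites for C/EBP, on either strand.
S100a8, chr3:90668821-90668977, plus strand, ending 94 bases before the start site
S100a8: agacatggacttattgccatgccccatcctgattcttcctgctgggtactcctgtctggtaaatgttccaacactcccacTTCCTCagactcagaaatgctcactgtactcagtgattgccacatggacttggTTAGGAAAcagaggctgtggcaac
S100a9, chr3:90695722-90695971, minus strand, ending at the start site
S100a9: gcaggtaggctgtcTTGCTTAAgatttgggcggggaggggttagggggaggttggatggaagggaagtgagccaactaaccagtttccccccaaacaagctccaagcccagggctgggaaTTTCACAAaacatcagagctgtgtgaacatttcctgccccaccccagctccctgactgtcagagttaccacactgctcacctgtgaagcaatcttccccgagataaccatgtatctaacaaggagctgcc
Elane, chr10:79886062-79886246, plus strand, ending 66 bases before the start site
Elane: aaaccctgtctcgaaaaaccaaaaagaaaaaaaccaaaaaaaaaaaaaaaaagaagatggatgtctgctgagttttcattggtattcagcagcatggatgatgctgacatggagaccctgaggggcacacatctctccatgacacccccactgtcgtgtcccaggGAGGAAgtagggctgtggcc
Prtn3, chr10:79879417-79879613, plus strand, ending 54 bases before the start site
Prtn3: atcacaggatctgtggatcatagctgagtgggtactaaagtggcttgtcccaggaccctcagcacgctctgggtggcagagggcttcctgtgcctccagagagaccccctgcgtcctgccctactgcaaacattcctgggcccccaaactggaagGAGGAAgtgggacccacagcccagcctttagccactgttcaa

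In the 250 bases before the start site, Elane held GAGGAA at 85 bases and Prtn3 at 95 bases before it. S100a8 held GAGGAA at 170 and 36 bases, TTNCNNAA at 117 bases and the letters TATAAA at 30 bases before its start site, of which those at 36 and 30 bases lie outside the printed stretch. S100a9 held TTNCNNAA at 236 and 130 bases. Of 32851 RefSeq promoters searched on both strands, 23.3% held GAGGAA, 36.8% held TTNCNNAA and 12.4% held TATAAA, so these letters are common. Overlaps between the motifs were not removed, and a match is a description of the sequence only.

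The libraries carried the RNA of lymphoid progenitors. All 12 genes of a list of CLP and lymphoid priming genes were above 0 in at least 1 library. Dntt, which encodes the terminal transferase of lymphoid progenitors, and Ly6d were above 0 in all 13 libraries, with medians of 4112 and 1418 TPM. Of the 12 genes, 5 were above 0 in all libraries. Others, named after their values were seen, were patchy, with Kit and Il2rg above 0 in 8 libraries, Rag2 in 6 and Ly6a in 5. Il7r, the gene of CD127, was at 0 in Notch1+/- library 6. Between 3264 and 6326 genes were above 0 in a library. Notch1, the mutated gene, had medians of 13.8 TPM in WT, 34.8 TPM in Notch1+/- and 32.4 TPM in Notch1+/ΔTAD mice, so its level does not check the genotype labels.

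The 9 genes together made up a small and uneven share of each library. Their summed level was 366 to 2461 TPM, or 0.0366% to 0.246% of the TPM of a library. Of the 117 values of 9 genes in 13 libraries, 55 were listed at 0, 13 were above 0 and under 10 TPM, 3 were from 10 to under 50 TPM and 46 were at 50 TPM or more. Values at 0 were thus 47.0% of those of the 9 genes, against 56.5% over the 10149 genes above 0 in at least 1 library. Values of 50 TPM or more were 39.3% of those of the 9 genes, against 18.3% over the same 10149 genes. The same gene was therefore often at 0 in one mouse and among the higher genes in another mouse of the same genotype. A value of 0 is what the table lists. Read counts were not used here, so no upper limit can be given for it.

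**Figure D1:**
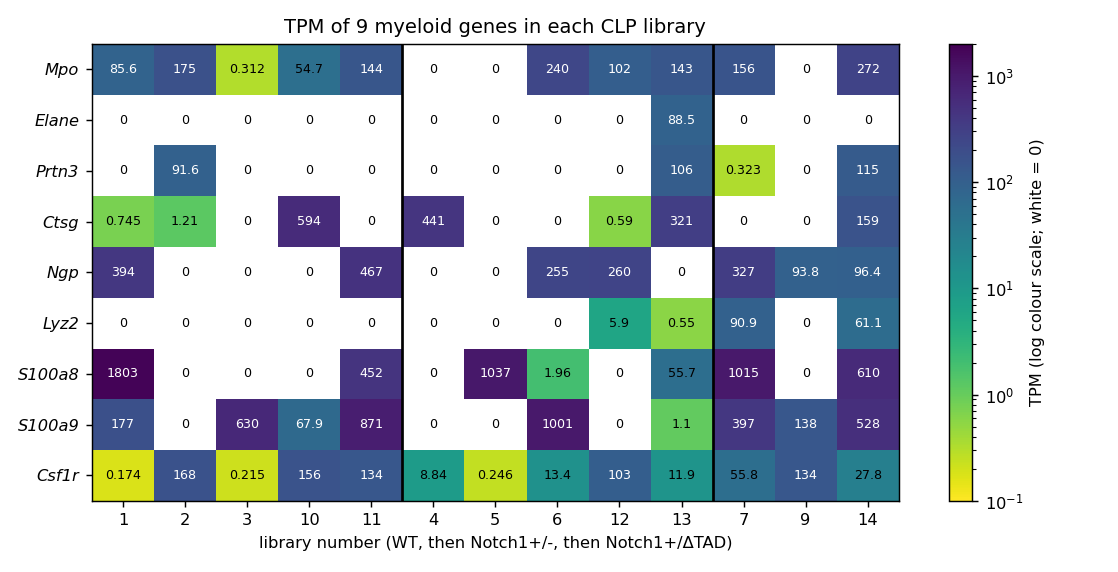
TPM of each of the 9 genes (vertical axis) in each of the 13 libraries (horizontal axis, grouped by genotype), with the color on a log scale and white cells for values of 0. Elane is above 0 in 1 library and Csf1r in all 13, and cells at 0 and cells of 50 TPM or more stand side by side within each genotype.

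Mpo encodes myeloperoxidase, the azurophil granule enzyme that makes hypochlorous acid. It was above 0 in 10 of 13 libraries. In WT libraries 1, 2, 3, 10 and 11 it was at 85.6, 175, 0.312, 54.7 and 144 TPM. Notch1+/- libraries 4 and 5 listed it at 0, and libraries 6, 12 and 13 had 240, 102 and 143 TPM. Notch1+/ΔTAD libraries 7, 9 and 14 had Mpo at 156, 0 and 272 TPM. Each genotype held mice with Mpo at 50 TPM or more and at least 1 mouse with Mpo under 1 TPM, and the 3 groups overlapped. Mpo lies on chromosome 11 from 87793581 to 87804413 on the plus strand, and Gm11505 overlaps it on the other strand. Whether strand was used to assign reads is not given in the sources used here.

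The serine proteases of the same granules were found in fewer mice. Elane encodes neutrophil elastase, and it was at 88.5 TPM in Notch1+/- library 13 and listed at 0 in the other 12 libraries. Prtn3 encodes proteinase 3. It was at 91.6 TPM in WT library 2 and at 106 TPM in Notch1+/- library 13. Notch1+/ΔTAD libraries 7 and 14 had 0.323 and 115 TPM, and the other 9 libraries listed it at 0. Of the 4 libraries with Prtn3, 1 also had its neighbor Elane. Plppr3 overlaps Prtn3 on the other strand.

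Ctsg encodes cathepsin G, a further azurophil granule protease, on chromosome 14 from 56099881 to 56102574 on the minus strand. In WT libraries it was at 0.745, 1.21 and 594 TPM in libraries 1, 2 and 10 and listed at 0 in libraries 3 and 11. In Notch1+/- libraries 4, 12 and 13 it was at 441, 0.590 and 321 TPM and at 0 in libraries 5 and 6, and in Notch1+/ΔTAD mice it was at 159 TPM in library 14 and at 0 in libraries 7 and 9. Each genotype thus held at least 1 mouse above 150 TPM and at least 2 mice at 0. Ctsg and Mpo were both above 0 in 6 libraries, Mpo alone in 4, Ctsg alone in 1 and neither in 2. In Notch1+/- library 4, Ctsg was at 441 TPM while Mpo, Elane and Prtn3 were all listed at 0.

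Ngp encodes neutrophilic granule protein, a cystatin-like protein of secondary granules, on chromosome 9 from 110419747 to 110423012 on the plus strand. In WT libraries 1 and 11 it was at 394 and 467 TPM, and in libraries 2, 3 and 10 it was listed at 0. In Notch1+/- libraries 6 and 12 it was at 255 and 260 TPM, and libraries 4, 5 and 13 had none. The Notch1+/ΔTAD libraries 7, 9 and 14 had Ngp at 327, 93.8 and 96.4 TPM. Ngp was the 1 gene among the granule genes above 0 in all 3 Notch1+/ΔTAD mice, with values below the higher WT values, and in library 7 above every Notch1+/- value.

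Lyz2 encodes lysozyme M, which cleaves bacterial cell walls and is made by monocytes, macrophages and granulocytes. It was listed at 0 in all 5 WT libraries and in Notch1+/- libraries 4, 5 and 6. It was at 5.90 and 0.550 TPM in Notch1+/- libraries 12 and 13. In Notch1+/ΔTAD libraries 7 and 14 it was at 90.9 and 61.1 TPM, and in library 9 it was at 0. The 2 highest values were both from Notch1+/ΔTAD mice, and the third mouse of that genotype was at the level of WT. Lyz1, the closely related lysozyme gene 5476 bases from Lyz2 on chromosome 10, was listed at 0 in every library.

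S100a8 and S100a9 encode the subunits of calprotectin, a calcium- and zinc-binding dimer that is abundant in neutrophils and monocytes. S100a8 gave the highest value of the 9 genes. It was at 1803 and 452 TPM in WT libraries 1 and 11 and at 0 in libraries 2, 3 and 10. In Notch1+/- libraries 5, 6 and 13 it was at 1037, 1.96 and 55.7 TPM and at 0 in libraries 4 and 12, and in Notch1+/ΔTAD libraries 7, 9 and 14 it was at 1015, 0 and 610 TPM. All 3 genotypes included mice at 0 and mice at 452 TPM or more.

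S100a9 was listed more often. In WT libraries 1, 2, 3, 10 and 11 it was at 177, 0, 630, 67.9 and 871 TPM. In Notch1+/- libraries 6 and 13 it was at 1001 and 1.10 TPM, and in libraries 4, 5 and 12 it was at 0. In Notch1+/ΔTAD libraries 7, 9 and 14 it was at 397, 138 and 528 TPM. All 3 Notch1+/ΔTAD mice were above 4 of the 5 Notch1+/- mice and below the fifth, and they lay within the range of the WT mice. Both subunits were above 0 in 6 libraries, S100a9 alone in 3, S100a8 alone in 1 and neither in 3. In Notch1+/- library 5, S100a8 was at 1037 TPM with S100a9 at 0, and in WT library 3, S100a9 was at 630 TPM with S100a8 at 0.

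Csf1r, the receptor tyrosine kinase for CSF1 and IL-34 on monocytes and macrophages, was the 1 gene of the 9 above 0 in every library, as were 7.61% of the 10149 genes. In WT libraries 1, 2, 3, 10 and 11 it was at 0.174, 168, 0.215, 156 and 134 TPM. In Notch1+/- libraries 4, 5, 6, 12 and 13 it was at 8.84, 0.246, 13.4, 103 and 11.9 TPM, and in Notch1+/ΔTAD libraries 7, 9 and 14 it was at 55.8, 134 and 27.8 TPM. WT mice fell into values under 1 TPM and values above 130 TPM, and 4 of the 5 Notch1+/- mice lay between them. Csf1 and Il34, the genes of its ligands, were listed at 0 in all libraries. Mir6983 overlaps Csf1r on the same strand and Hmgxb3 on the other.

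**Figure D2:**
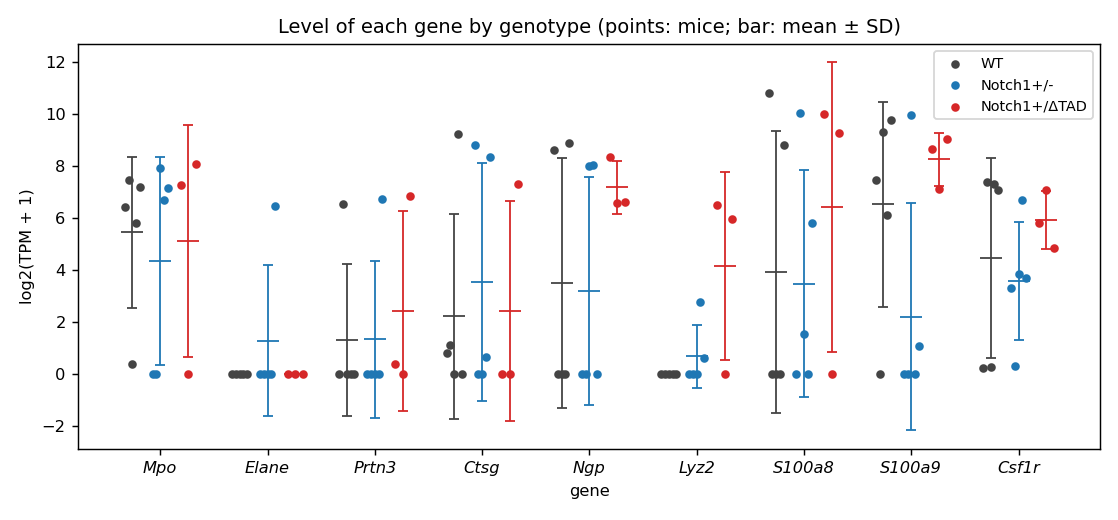
Level of each gene (horizontal axis) as log2(TPM + 1) (vertical axis), with a point for each of 5 WT, 5 Notch1+/- and 3 Notch1+/ΔTAD mice and bars for the mean ± SD of each genotype. In Mpo, Ctsg and S100a8 every genotype spans from 0 or near 0 to more than 7, and Ngp and S100a9 have no Notch1+/ΔTAD mouse at 0.

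The levels were compared between genotypes as log2(TPM + 1) with limma, over all genes that reached 1 TPM in enough libraries. The number needed was the size of the smaller group, and for the comparison of the mutants it was counted over all 13 libraries, WT included. The p-values were adjusted over the genes tested by the Benjamini-Hochberg method. Fold changes are on the log2(TPM + 1) scale, which understates changes of genes near 0. The p-values measure the spread between mice. Notch1+/ΔTAD against WT asks what the allele without the transactivation domain does, Notch1+/- against WT what the loss of 1 allele does, and Notch1+/ΔTAD against Notch1+/- sets these against each other. The comparisons share libraries and are not independent of one another.

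In Notch1+/ΔTAD against WT CLPs, none of the 9 genes passed. Among 4737 genes tested, 0 had a limma adjusted p under 0.05, a background of 0%, and 237 had an unadjusted p under 0.05, or 5%, with 196 higher and 41 lower. The limma test covered 6 of the 9 genes, of which 0 had an unadjusted p under 0.05 and 0 had groups without overlap, against 3.12% of all genes tested. Among the 6 tested genes Ngp differed most, at 7.18 ± 1.02 (mean ± SD of log2(TPM + 1), n = 3) in Notch1+/ΔTAD and 3.50 ± 4.79 (n = 5) in WT mice. Its log2 fold change was 3.68 (standard error 2.34, limma adjusted p = 0.952). By the 2-sided exact permutation test p was 0.304, where 0.0179 is the smallest that 3 against 5 mice can give.

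The other 5 tested genes had log2 fold changes against WT of 2.49 for S100a8, 1.74 for S100a9, 1.46 for Csf1r, 0.21 for Ctsg and -0.32 for Mpo, with standard errors of 1.79 to 2.97. When each library was left out in turn, Mpo ran from -1.81 to 2.24, Ctsg from -2.23 to 1.95, S100a8 from 0.70 to 5.69, S100a9 from 0.10 to 2.54, Csf1r from 0.41 to 2.20 and Ngp from 2.80 to 5.02. Elane was listed at 0 in both genotypes, Prtn3 reached 1 TPM in 1 mouse of each, and Lyz2 was listed at 0 in WT, so these 3 genes were below the minimum. For Lyz2, whose difference of means was larger than that of Ngp but depends on the pseudocount because WT was at 0, the exact permutation p was 0.107. The median log2 fold change was 1.60 over the 6 tested genes of the 9 and 0.47 over all genes tested. Over the 9 genes, tested or not, it was 1.46. The median over the 9 genes was 0.79 to 2.31 when each library was left out in turn and 0.56 with a pseudocount of 10. After quantile normalization the medians over the 9 genes and over all genes tested were 1.15 and -0.02. With it, 136 genes were higher and 69 lower at an unadjusted p under 0.05. Notch1+/ΔTAD libraries also listed more genes in total, 4706 to 5764 against 3744 to 4614 in WT, and the part of this in the median of the 9 genes was not tested.

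Between Notch1+/- and WT CLPs the 4 tested genes all had lower means in Notch1+/-, and none passed. Of 3178 genes tested, 0% had a limma adjusted p under 0.05 (0 genes), 5.35% an unadjusted p under 0.05 (170 genes) and 0.787% no overlap between the groups, and the 9 genes gave 0 in each of these counts. S100a9 was at 2.21 ± 4.36 (mean ± SD of log2(TPM + 1), n = 5) in Notch1+/- and 6.53 ± 3.93 (n = 5) in WT mice. Its log2 fold change of -4.32 (standard error 2.27, limma adjusted p = 0.921) was the lowest of the 4, with an unadjusted p of 0.0762 in limma and an exact permutation p of 0.206. The log2 fold changes of Mpo, Csf1r and S100a8 were -1.10, -0.88 and -0.45, with standard errors of 1.92 to 2.61, and when each library was left out in turn they ran from -2.36 to -0.011, from -1.94 to -0.071 and from -2.08 to 1.28. Ctsg, Ngp, Elane, Prtn3 and Lyz2 were below the minimum for this test. The median was -0.99 over the 4 tested genes of the 9, beside 0.06 over all genes tested. Over the 9 genes, tested or not, it was -0.29. That median over the 9 ran from -1.17 to 0.68 when each library was left out in turn. It was above 0 without WT library 1 or 11 or Notch1+/- library 4, 5, 6 or 12 and with a pseudocount of 0.1 (0.043).

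In Notch1+/ΔTAD against Notch1+/- CLPs, fitted with all 13 libraries in 1 model, S100a9 and Lyz2 had higher levels in Notch1+/ΔTAD at an unadjusted p under 0.05, and neither passed after adjustment. Of 6281 genes tested, 0% had an adjusted p under 0.05 (0 genes), 5.33% an unadjusted p under 0.05 (335 genes, of which 257 were higher and 78 lower) and 3.06% no overlap. Of the 9 genes, 8 were tested, and the counts were 0, 2 and 0. Prtn3 was among the 8 only because a WT library also reached 1 TPM, and it was below the minimum in the mutant libraries alone. The log2 fold change of S100a9 was 6.06 (standard error 2.26, limma adjusted p = 0.932), which ranked 76th of all genes tested by p-value. For Lyz2 it was 3.48 (standard error 1.38, limma adjusted p = 0.932). By the 2-sided exact permutation test, p was 0.143 for S100a9 and 0.107 for Lyz2.

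S100a9 was higher in 3 of 3 Notch1+/ΔTAD mice than in 4 of 5 Notch1+/- mice, and Lyz2 was higher in 2 of 3 than in all 5. The remaining log2 fold changes between the mutants were 3.97 for Ngp, 2.93 for S100a8, 2.35 for Csf1r, 1.07 for Prtn3, 0.77 for Mpo and -1.12 for Ctsg, with standard errors of 2.01 to 2.90. When single libraries were left out, Mpo, Ctsg and Prtn3 changed sign (-0.71 to 3.34, -3.56 to 0.19 and -1.15 to 2.42), whereas S100a9 was at 5.51 or more, and Lyz2 ran from 2.29 to 5.56, Ngp from 3.17 to 5.18, S100a8 from 1.15 to 6.14 and Csf1r from 1.53 to 3.13. The median over the 9 genes was 2.35, with 1.51 to 3.34 when each library was left out in turn and 1.47 with a pseudocount of 10. Over the 8 tested genes of the 9 the median was 2.64, and over all genes tested it was 0.35. After quantile normalization the medians over the 9 genes and over all genes tested were 1.72 and 0.01. The smallest exact permutation p of the 9 genes in any comparison was 0.107 before adjustment. The smallest that the designs allow are 0.0179 for 3 against 5 mice and 0.00794 for 5 against 5.

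**Figure D3:**
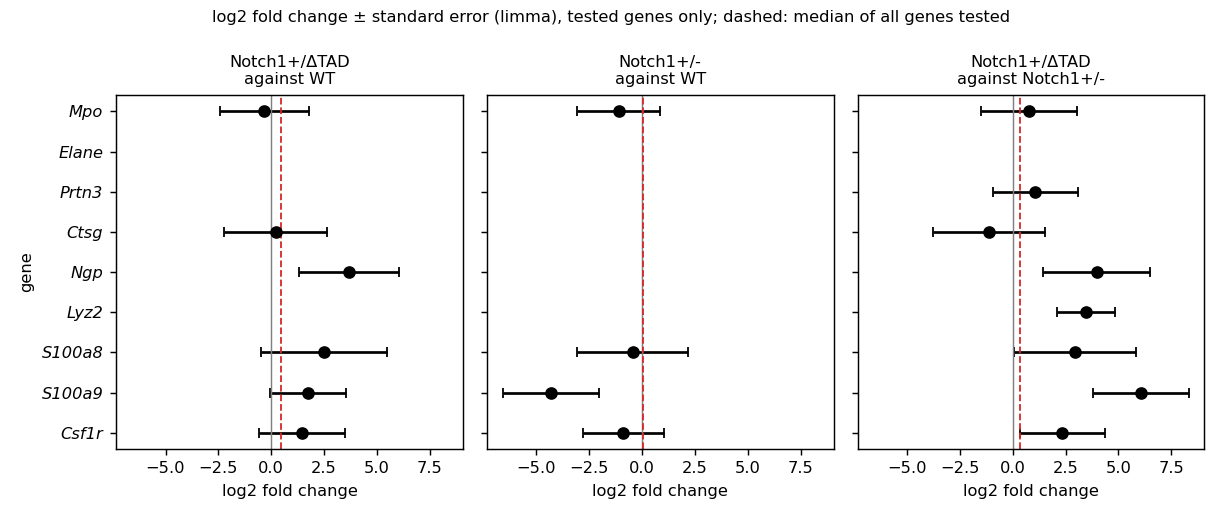
Log2 fold change of each tested gene (points) with its limma standard error (bars) in the 3 comparisons of genotypes, where a dashed line marks the median of all genes tested and an empty line a gene below the minimum. S100a9 lies at -4.32 in Notch1+/- against WT and at 6.06 in Notch1+/ΔTAD against Notch1+/-, with adjusted p-values of 0.921 and 0.932.

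The number of the 9 genes above 0 was set beside the number of all genes a library listed. Libraries 13 and 14, with 6326 and 5764 genes above 0, each had 8 of the 9 genes. Libraries 4 and 5, with 3868 and 3522 genes above 0, each had 2 of the 9. Other libraries departed from this order. Library 6 had the fewest genes, 3264, and 5 of the 9, library 11 had 3744 genes and 5 of the 9, and library 9 had 4706 genes and 3 of the 9. By genotype, 22 of 45 values were above 0 in WT (48.9%), 22 of 45 in Notch1+/- (48.9%) and 18 of 27 in Notch1+/ΔTAD (66.7%). The median number of all genes above 0 in a library was, in the same order, 3904, 3868 and 4973. Without the library of each genotype that listed most genes (1, 13 and 14, left out after the values were seen), the shares were 44.4%, 38.9% and 55.6%. What number of genes and genotype each contribute was not tested.

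**Figure D4:**
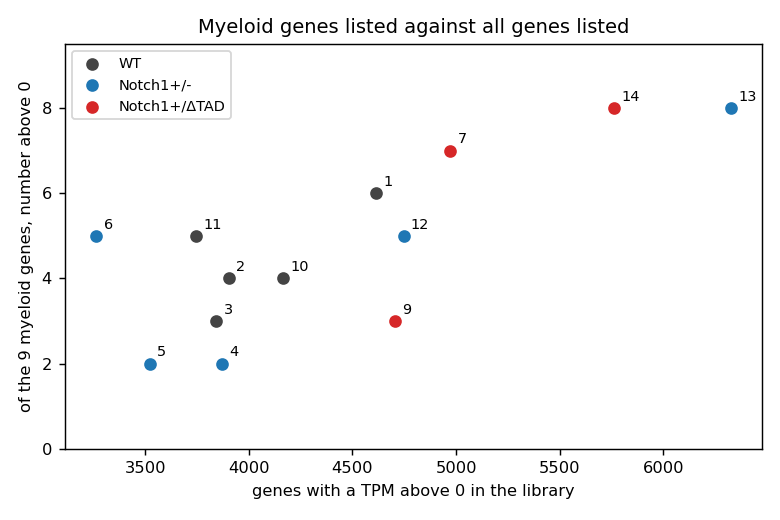
Number of the 9 genes above 0 (vertical axis) against the number of all genes above 0 (horizontal axis) in each library, numbered and colored by genotype. Libraries 13 and 14 list 6326 and 5764 genes and 8 of the 9, and libraries 4 and 5 list 3868 and 3522 genes and 2 of the 9.

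Other genes of the myeloid program were read from lists of markers. In the list of 17 secondary granule and late neutrophil genes, 8 were at 0 in every library, among them Cebpe, Ly6g, Mmp9 and Chil3, and the other 9 were above 0 in 1 to 4 libraries. Summed over that list, WT libraries had 0 to 571 TPM, Notch1+/- libraries 0 to 14.0 TPM and Notch1+/ΔTAD libraries 11.9 to 21.1 TPM, and 0 of its genes met the minimum in any comparison. S100a8, S100a9 and Ngp, whose transcripts later neutrophil stages also hold, were above 0 in 7, 9 and 7 libraries. The highest values of the list, named after they were seen, were in 3 different WT mice, with Wfdc21 at 554 TPM in library 1, Retnlg at 547 TPM in library 10 (17.1 TPM in library 1) and Camp, the cathelicidin gene, at 201 TPM in library 11. Libraries 1 and 11 also had Ngp, S100a8 and S100a9 above 0, whereas library 10 had Ngp and S100a8 at 0 and S100a9 at 67.9 TPM. In libraries 6, 7 and 14, Ngp, S100a8 and S100a9 were above 0 while Wfdc21, Retnlg and Camp were at 0.

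In the list of 10 primary granule and early granulocyte genes, 6 were above 0 in 10 or more libraries and Ms4a3 was at 0 in all. Plac8 and Calr, which encodes the chaperone calreticulin, were above 0 in all 13 libraries with medians of 2078 and 738 TPM, and neither is restricted to myeloid cells. Plac8 was at 2153 to 2811 TPM in Notch1+/ΔTAD and 1576 to 2078 TPM in WT mice without overlap (log2 fold change 0.46, limma adjusted p = 0.958). Prss57, a neutrophil serine protease gene, was at 1.79 to 140 TPM in Notch1+/ΔTAD and 0 to 0.745 TPM in Notch1+/- mice without overlap (log2 fold change 4.68, limma adjusted p = 0.932). Of the list, 7, 6 and 7 genes were tested in Notch1+/ΔTAD against WT, Notch1+/- against WT and Notch1+/ΔTAD against Notch1+/-, and 0, 1 and 1 were higher at an unadjusted p under 0.05, with 0 lower and 0 past an adjusted p under 0.05. These were Cd63, the gene of a granule membrane protein, between Notch1+/- and WT (0 to 150 TPM in WT and 4.48 to 388 TPM in Notch1+/- mice, limma adjusted p = 0.892) and Prss57 between the mutants. Cd63 is named after its values were seen.

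In the list of 18 monocyte and macrophage genes, 5 were at 0 throughout (Adgre1, Cd68, Fcgr1, Fcgr3 and Lgals3), and Cst3 and Ctss, which encode cystatin C and cathepsin S, had medians of 523 and 181 TPM. Of that list, 10, 8 and 10 genes were tested, 1, 0 and 1 were higher at an unadjusted p under 0.05, 0 were lower and 0 passed an adjusted p under 0.05. The 2 higher genes, named after their values were seen, were Ms4a6c against WT (log2 fold change 4.74, limma adjusted p = 0.952) and Ly6c2, the gene of the monocyte antigen Ly6C, between the mutants (log2 fold change 4.52, limma adjusted p = 0.932). Ly6c2 was at 0 to 153 TPM in Notch1+/ΔTAD mice and at 0 in all Notch1+/- mice. It met the minimum only because WT library 11, the highest at 280 TPM, was counted, and was below the minimum in the mutant libraries alone. The list's median log2 fold changes over the tested genes were 1.93, 0.59 and 1.66 in the same order of comparisons. Over all genes tested they were 0.47, 0.06 and 0.35. In Notch1+/ΔTAD against WT the medians of other lists were 0.46 (primary granule), 1.03 (receptors and ligands), 1.04 (other S100 genes), 0.42 (transcription factors) and -0.29 (NADPH oxidase). Between the mutants they were, in that order, 0.31, 0.57, -0.77, 0.28 and 0.12. Lists of other cells had medians in Notch1+/ΔTAD against WT of 1.19 (dendritic cell), 0.54 (B lineage), -0.33 (CLP and lymphoid priming) and 4.70 (T and NK lineage, 2 genes tested). Between the mutants these lists had medians of 0.14, 1.07, -0.27 and 4.94. Among receptors and ligands of myeloid cytokines, the genes with the highest medians were Cxcr4 (88.7 TPM) and Csf2ra (13.2 TPM), and 2, 2 and 4 of 10 were tested with 0 at an unadjusted p under 0.05. Csf3r, the receptor gene for G-CSF, was above 0 in Notch1+/- library 13 alone, at 30.8 TPM, and it is named after its values were seen.

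Of 10 myeloid transcription factor genes, Irf8 and Spi1, the gene of PU.1, were above 0 in all 13 libraries, with medians of 743 and 31.9 TPM. WT mice had 300.5 to 1129 TPM of Irf8, Notch1+/- mice 320.1 to 919 TPM and Notch1+/ΔTAD mice 786 to 1389 TPM. Cebpa, which encodes C/EBPα, was above 0 in 5 libraries and at most 6.40 TPM. In the 3 comparisons 5, 4 and 6 of them were tested, with 0 at an unadjusted p under 0.05. In the list of 6 subunits of the phagocyte NADPH oxidase, Rac2 and Ncf1 had the highest medians, 328 and 80.7 TPM, and 3, 2 and 6 genes were tested with 0 at an unadjusted p under 0.05. Among 12 other S100 genes, S100a11 was above 0 in all 13 libraries (median 727 TPM), S100a10 in 7, and 7 were at 0 throughout. Of these 12, 4, 1 and 4 were tested. S100a6, named after its values were seen, was the 1 gene of that family at an unadjusted p under 0.05, higher in Notch1+/ΔTAD than in Notch1+/- mice (0 to 149 TPM against 0 to 0.550 TPM, limma adjusted p = 0.932). In WT mice S100a6 was at 0 to 234 TPM. It met the minimum only because WT libraries 1 and 3, at 17.9 and 234 TPM, were counted. In the mutant libraries alone it was below the minimum.

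Markers of other cells that the sort could have held were read in the same way. Of 12 eosinophil, basophil and mast cell genes 10 were at 0 throughout, and of 13 erythroid and megakaryocyte genes 11 were, and 0 genes of either list could be tested. Cpa3, a mast cell protease gene, was at 307 TPM in WT library 3 and at 0 elsewhere. Mcpt8, of the same list as Cpa3, was at 117 TPM in Notch1+/ΔTAD library 9 and at 0 elsewhere. Both are named after their values were seen. In the list of 10 dendritic cell genes, 6 were above 0 in 10 or more libraries, with medians of 483 TPM for Bst2 and 262 TPM for Cd74. Of that list 8, 7 and 9 genes were tested, and 2, 0 and 1 were higher at an unadjusted p under 0.05. Cd74, which encodes the invariant chain, did not overlap between Notch1+/ΔTAD and either other genotype (limma adjusted p = 0.923 against WT, 0.997 against Notch1+/-). Groups without overlap were 3.12% and 3.06% of all genes tested in these comparisons. Clec9a, a receptor gene of dendritic cells named after its values were seen, was at 11.1 to 41.2 TPM in Notch1+/ΔTAD mice. It was listed at 0 in the 10 others (limma adjusted p = 0.418 against WT, 0.192 against Notch1+/-). Clec9a thus met the minimum through the Notch1+/ΔTAD mice alone. That fixed its lack of overlap in advance, so no conclusion is drawn from it. Summed over the dendritic list, WT libraries had 701 to 1646 TPM, Notch1+/- libraries 449.7 to 1825 TPM and Notch1+/ΔTAD libraries 908 to 2593 TPM. The part of such cells in the levels of the 9 genes was not tested.

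**Figure D5:**
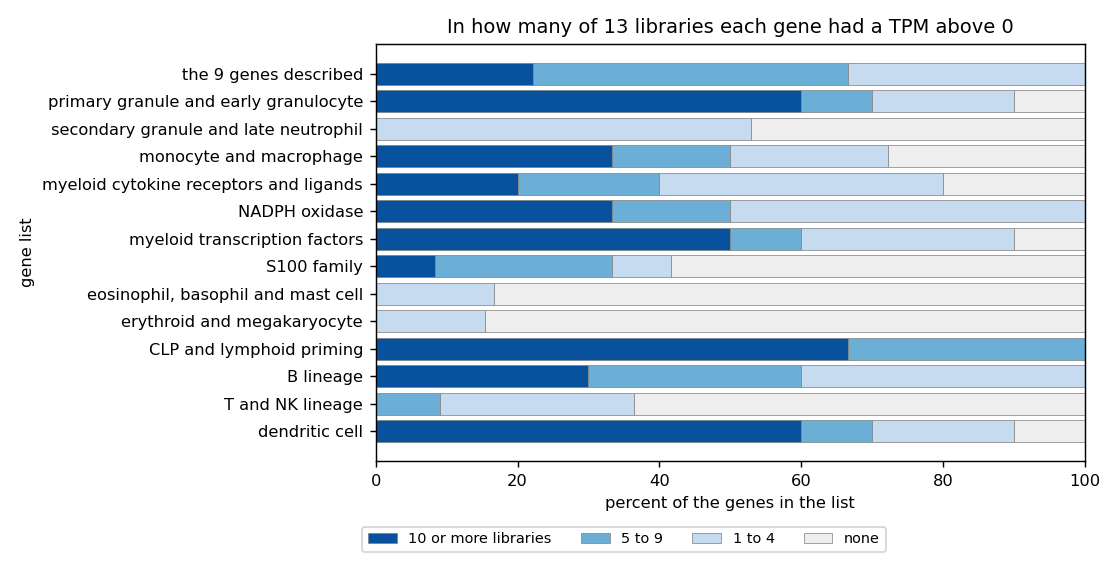
Percent of the genes of each list (horizontal axis) by the number of libraries, of 13, in which the gene had a TPM above 0. The 17 secondary granule and late neutrophil genes have none in 5 or more libraries, whereas all 12 CLP and lymphoid priming genes are in 5 or more.

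The pattern of the 9 genes over the libraries was followed by their mean log2(TPM + 1), which ran from 1.11 in WT library 3 to 6.44 in Notch1+/ΔTAD library 14. Among 3850 other genes above 0 in at least 7 libraries, the TPM most like this mean in rank were those of Asnsd1, Ganab, Serf2, Psma3 and Rbm6, with Spearman's rho over the 13 libraries of 0.842, 0.823, 0.819, 0.812 and 0.803. These values are the highest of 3850 and describe these libraries, which differ in how many genes they list. None of the 5 genes is in the lists of myeloid genes.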

How the data were processed

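Sorted CLPs of 13 mice in 3 genotypes were profiled by 3′ RNA-Seq, 1 library per mouse. The authors used FASTQ Toolkit for trimming and STAR for alignment to mm10, and deposited TPM values in 2 tables, whose WT columns hold the same values. The tool, annotation and gene lengths behind the TPM values are not given in the sources used here. Reads of this kit lie at the 3′ end of a transcript, so division by length can shift levels between genes. Read counts were not used, depth is unknown and precision rests on the spread between mice.

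Groups followed the genotype labels. In R 4.3.3, limma 3.58.1 (lmFit, then eBayes with trend, 2-sided) was run on log2(TPM + 1). A gene entered when at least 3 libraries (5 for Notch1+/- against WT) reached 1 TPM, and a Benjamini-Hochberg adjusted p under 0.05 was called. For Notch1+/ΔTAD against Notch1+/- all 13 libraries were counted. An exact permutation test (2-sided) of the mean log2(TPM + 1) was added for each gene. The script was tested on simulated data. The genes and lists were chosen with earlier results of these data known. Beside the 9 genes, the rule for naming took the 2 highest medians of a list and myeloid genes without overlap between groups, unless the text says otherwise. Cebpa and the genes named from lists as at 0 in every library were outside this rule and were chosen with their values known. Alternatives were pseudocounts of 0.1 and 10, other filters, scalings and variance models, a term for the range of library numbers, and leaving out each library. Coordinates follow GENCODE M21 (GRCm38, the same build as mm10), and sequences from RefSeq, in which 8 of the genes were looked up and matched.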

Additional observations from a re-analysis of the deposited data

Results flagged for a closer look

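In 26 groups of 5 libraries (the 9 genes and 5 library measures in WT and Notch1+/- mice, leaving out 2 groups that were at 0 throughout), the gap of the highest or lowest value to its neighbor was set against the whole range by Dixon's ratio. In 9 groups it was above the critical value of 0.71. Chance gives about 1 in 20, or 1.3 of 26, but that rate is for normally distributed values, and 8 of the 9 groups hold 2 or more values at 0. All 9 were single high values of myeloid genes, and none was a library measure. Other genes were not put through this check, so these values are not shown to be particular to the 9 genes.

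In WT mice these were Ctsg at 594 TPM in library 10, S100a8 at 1803 TPM in library 1 and Prtn3 at 91.6 TPM in library 2. In Notch1+/- mice they were S100a8 at 1037 TPM in library 5, S100a9 at 1001 TPM in library 6, Csf1r at 103 TPM and Lyz2 at 5.90 TPM in library 12, and Elane at 88.5 TPM and Prtn3 at 106 TPM in library 13. The values came from 7 of the 10 libraries, with at most 2 from any mouse. Notch1+/ΔTAD mice, with 3 libraries, were too few for this check. No cause was tested.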

How the results depend on the processing

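Under every alternative, 0 of the 9 genes passed an adjusted p under 0.05 in any comparison, and the smallest of 377 adjusted p-values was 0.195. Of 708 alternative values, 44 had the opposite sign, 25 of them where the gene was tested both ways and 19 where it was not or where the value is a median, and none of the 44 was called. With eBayes without trend, 15, 2 and 3 of all genes passed in Notch1+/ΔTAD against WT, Notch1+/- against WT and Notch1+/ΔTAD against Notch1+/-, against 0 otherwise. The cause was not tested. Log2 fold changes in Notch1+/ΔTAD against WT reversed to -0.32 for Ctsg with a pseudocount of 0.1, and for Mpo to 0.13 with a pseudocount of 10 and 0.032 with array weights. In Notch1+/- against WT that of S100a8 reversed to 0.11 with a pseudocount of 0.1.

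When each library was left out in turn, the range was, in Notch1+/ΔTAD against WT, -2.23 to 1.95 for Ctsg (below 0 without WT library 1, 2, 3 or 11 or Notch1+/ΔTAD library 14) and -1.81 to 2.24 for Mpo (above 0 without WT library 2 or 11 or Notch1+/ΔTAD library 9). In Notch1+/- against WT it was -2.08 to 1.28 for S100a8 (above 0 without WT library 1 or 11 or Notch1+/- library 4, 6 or 12). Between the mutants it was -0.71 to 3.34 for Mpo (below 0 without Notch1+/- library 4 or 5 or Notch1+/ΔTAD library 7 or 14), -3.56 to 0.19 for Ctsg (above 0 without Notch1+/- library 4 or 13 or Notch1+/ΔTAD library 7 or 9) and -1.15 to 2.42 for Prtn3 (below 0 without Notch1+/ΔTAD library 14). Of genes not tested with all libraries, those that changed sign were Ngp and Prtn3, which in Notch1+/- against WT ran from -1.50 to 1.05 and from -1.31 to 1.35, and Prtn3 in Notch1+/ΔTAD against WT from -1.10 to 2.42. S100a9 and Lyz2 between the mutants ran from 3.63 to 8.21 and from 1.91 to 5.56 over all alternatives, with smallest adjusted p-values of 0.599 and 0.195. No paired analysis was run, since the labels used here pair no mice between genotypes. With a term for libraries numbered 10 and above, 0 of the 9 genes passed in any comparison. What these numbers stand for is not given. Since depth is unknown, a TPM of 0 carries no upper limit.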

Other observations

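The TPM values of the 9 genes followed different numerical patterns. In each library the most frequent TPM value, 0.550 to 1.41 TPM, was shared by 12 to 57 genes. All values above 0 of 5 of the genes (Ctsg, S100a9, Ngp, Elane and Lyz2) were whole multiples of that value in their library, within a tolerance of 0.02. Ctsg held 1 to 584 such steps, S100a9 held 2 to 894, Ngp 71 to 529, Lyz2 1 to 120 and Elane 161. No value of Mpo, S100a8, Prtn3 or Csf1r was a whole multiple within that tolerance. Of all genes above 0 in a library, 9.61% to 12.0% were whole multiples. The tool that made the TPM values is not given in the sources used here, so a step was not equated with a read.

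Genes of the lymphoid lists gave further values. Among 10 B lineage genes, Blnk and Vpreb1, which encode an adaptor of the pre-B cell receptor and a part of its surrogate light chain, had the highest medians, 112 and 94.4 TPM, and 7, 4 and 7 genes were tested in Notch1+/ΔTAD against WT, Notch1+/- against WT and Notch1+/ΔTAD against Notch1+/- with 0 at an unadjusted p under 0.05 in limma. Among 11 T and NK lineage genes 7 were at 0 in every library. Cd7, named after its values were seen, was at 140 to 402 TPM in Notch1+/ΔTAD and at 0 in WT mice. In Notch1+/- mice it was at 0 to 17.2 TPM (limma adjusted p = 0.395 against WT and 0.267 against Notch1+/-). Against WT, Cd7 met the minimum through the Notch1+/ΔTAD mice alone, so no conclusion is drawn from that test. Of 12 CLP and lymphoid priming genes, 12, 10 and 12 were tested in the same order, with 0, 0 and 1 at an unadjusted p under 0.05. That gene, Ly6d, did not overlap between the mutants, at 1801 to 2302 TPM in Notch1+/ΔTAD and 194 to 1538 TPM in Notch1+/- mice (log2 fold change 1.62, limma adjusted p = 0.932).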
